A study of Mus musculus with 6 samples.

Results

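Long and small noncoding RNA genes were examined in cultured mouse hepatocytes with and without interleukin-1β (IL-1β), the inflammatory cytokine that activated Kupffer cells release in the liver. The members were the genes whose row in the deposited table cites a RefSeq transcript with the NR_ prefix, which RefSeq gives to transcripts without an annotated protein product, and whose raw counts summed to 100 or more over all samples. The 45S pre-ribosomal RNA row, Rn45s, was left out by the same rule. This gave 557 of 23282 genes, from 2808 rows with such a prefix. The prefix did not fully match the name noncoding, because 162 of the 557 belong to genes that are protein-coding in RefSeq. Of these, 150 are protein-coding in the deposited table, where a noncoding transcript stands for the gene, and 9 are listed there as long noncoding RNAs but are protein-coding in RefSeq. The remaining 395 comprised 256 long noncoding RNAs, 33 small RNAs, 103 pseudogenes and 3 rows without a RefSeq class, and the results concern these 395 unless stated otherwise.

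The cells were primary hepatocytes from C57BL/6N mice. After 3 h of attachment, 3 cultures stayed without cytokine (control) and 3 received recombinant IL-1β for 24 h, with no other treatment in either group. The labels do not state a dose for these cultures or whether they came from separate mice, so p-values measure the spread between the samples, which may be technical. RNA was sequenced by QuantSeq 3′ mRNA-Seq, which primes on poly(A) and reads 75 nt near the 3′ end.

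Total counts ranged from 9538741 to 11105408 per library, and the 395 noncoding members held 2.02 to 2.25% of them. Hepatocyte markers summed to 47700 to 50000 counts per 1000000 (CPM) in control and 45400 to 46800 CPM in IL-1β libraries, with 8 of 11 tested markers lower and 1 higher. Kupffer cell markers summed to 251 to 279 and 255 to 289 CPM, and 0 of 11 passed the test. Cholangiocyte markers summed to 317 to 329 and 236 to 240 CPM, with 1 of 2 tested markers lower. Of the endothelial markers 1 of 7 was higher and 2 were lower, and of the stellate cell markers 0 of 3 passed. Neutrophil markers summed to at most 0.179 CPM in control and 2.24 to 4.83 CPM after IL-1β, where the only one tested, S100a8, was higher and the defining genes S100a9, Elane and Mpo were at 0, as were the lymphocyte genes Cd3e, Cd79a and Ms4a1. The part of other cells in the results below was not tested, and in bulk RNA fewer cells of a type and less RNA per cell cannot be told apart.

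Long noncoding RNAs include nuclear scaffolds such as Malat1 and Neat1, imprinting RNAs such as Kcnq1ot1 and Airn, and transcripts whose introns release small RNAs. Small nucleolar RNAs (snoRNAs) are cut from introns of such transcripts or of protein-coding genes and guide the chemical modification of ribosomal RNA. Box C/D snoRNAs direct 2′-O-methylation and box H/ACA snoRNAs direct pseudouridylation. Most mature snoRNAs carry no poly(A) tail, so a poly(A)-primed library captures only a fraction of them.

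Compared with the control, IL-1β treatment upregulated 23 and downregulated 11 of the 395 noncoding members. All calls among the small RNAs had the same direction, with 9 of 33 higher and 0 lower, while the long noncoding RNAs were divided into 9 higher and 10 lower of 256. Pseudogenes gave 5 higher and 1 lower of 103. These calls used edgeR's quasi-likelihood test at a Benjamini-Hochberg adjusted p below 0.05 over all 11657 genes tested, and all 557 members were tested.

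As background, 13.4% of all tested genes passed this threshold, 6.97% as higher and 6.44% as lower. The share among the noncoding members was 8.61%, with 5.82% higher, and among the long noncoding RNAs 7.42%. The small RNAs stood at 27.3%, all of them higher. The median log2 fold change was 0.51 for the small RNAs, 0.05 for the long noncoding RNAs and 0.06 for the pseudogenes, against -0.002 for all tested genes. Scaling to total counts alone gave 17 higher and 16 lower noncoding members in place of 23 and 11, and left the small RNAs at 8 higher and 0 lower. The long noncoding RNAs then divided into 6 higher and 13 lower, and the pseudogenes into 3 and 3. Without IL-1β replicate 1 the long noncoding RNAs gave 3 higher and 5 lower, and without control replicate 1 they gave 10 higher and 6 lower.

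**Figure D1:**
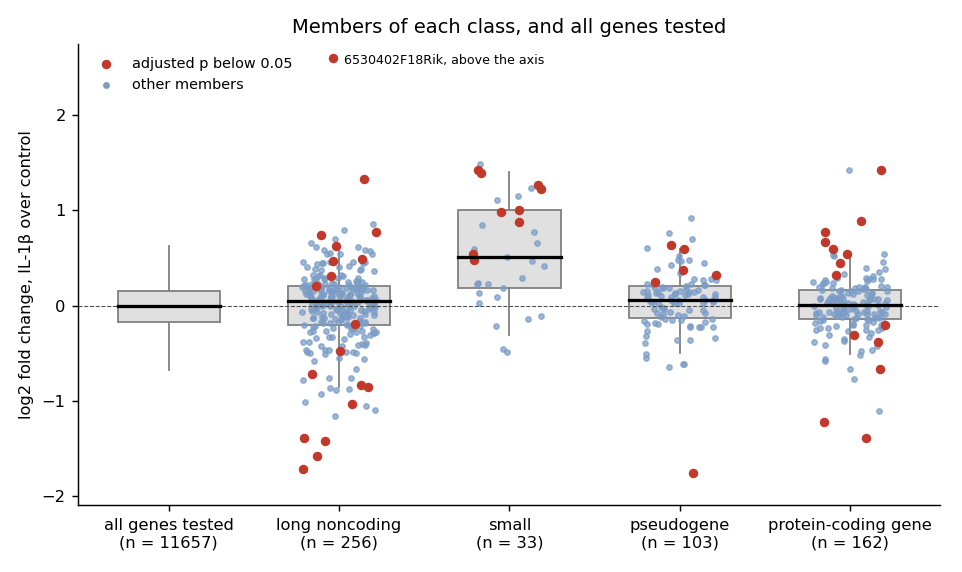
Log2 fold change of IL-1β over control for each member (points) by RefSeq class, with all tested genes at the left. Boxes span the middle quartiles, whiskers the 5th to 95th percentiles and black lines the medians. Red points passed the test. The small RNAs are centred at 0.51, whereas the other boxes lie around 0, and 6530402F18Rik, with no control counts, lies above the axis. The 3 rows without a class are not drawn.

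The noncoding members had a median level of 5.98 CPM, against 22.3 CPM over all tested genes, and the calls were therefore also counted within ranges of summed counts. From 100 to under 200 summed counts, 6.78% of noncoding members and 7.8% of the tested genes that are no members passed. From 200 to under 1000 counts the shares were 6.79% and 10.1%, and from 1000 counts upwards 13% and 16.9%. In total, 97 of the 395 had groups that did not overlap in CPM, which is 24.6%, against 28.2% of all tested genes.

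The rule selected on the summed counts, not on the direction of change. Just inside its limit lay 1500017E21Rik with 100 counts and 0610040B10Rik with 102, and just outside lay 4933433G19Rik and 9330133O14Rik with 99 each. For 33 noncoding members the sum would be under 100 if both groups were at the level of the lower group, and 7 of these 33 passed the test. The 7 were 6530402F18Rik, 4933440J02Rik and Snora21, higher after IL-1β, and Gm12603, 1110028F11Rik, Gm16617 and Olfr1372-ps1, lower. They met the rule only through the group where they were high, so it bears on the sizes of their changes.

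Among the called small RNAs, Rpph1 showed the largest increase. Rpph1 is the catalytic RNA of ribonuclease P, the enzyme that removes the 5′ leader from tRNA precursors. Its level was 2.07, 2.33 and 1.71 CPM in the 3 control libraries and 6.2, 3.84 and 6.51 CPM in the 3 IL-1β libraries. Every treated library lay above every control. The log2 fold change was 1.43 (SE 0.336, adjusted p = 0.00413, edgeR's quasi-likelihood test), and the call was kept whichever library was left out.

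Rpph1 lies at chr14:50807447-50807771 on the minus strand (GRCm38) and is separated by 175 bp, in the intervals of the deposited table, from Parp2, a DNA repair enzyme gene transcribed in the opposite direction. Parp2 was at 23.2 ± 0.663 CPM in control and 22.8 ± 1.49 CPM in IL-1β cells (SD, n = 3), with a log2 fold change of -0.03 (SE 0.125). The window around the Parp2 start shows how close the pair sits. It covers chr14:50807666-50807965 on the plus strand (RefSeq, GRCm38.p6), with the bases that belong to the Rpph1 gene in capitals.
Parp2 promoter: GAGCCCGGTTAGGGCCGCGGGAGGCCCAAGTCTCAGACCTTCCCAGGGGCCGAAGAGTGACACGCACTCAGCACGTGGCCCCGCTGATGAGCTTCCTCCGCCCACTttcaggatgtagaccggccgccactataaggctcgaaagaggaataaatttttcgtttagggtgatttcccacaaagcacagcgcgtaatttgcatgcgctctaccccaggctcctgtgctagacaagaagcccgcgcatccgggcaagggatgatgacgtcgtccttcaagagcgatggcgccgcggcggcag

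The protein subunits of RNase P and the related RNase MRP were examined alongside. Of 10 tested subunits, 2 rose and 0 fell, with a median log2 fold change of 0.004, beside 13.4% of all tested genes called. Pop1, a large scaffold subunit, went from 65.1 ± 5.91 to 85.2 ± 7.47 CPM (SD, n = 3), which is 0.39 on the log2 scale with an adjusted p of 0.0043 in edgeR's quasi-likelihood test. Pop7, a small RNA-binding subunit, went from 8.51 ± 0.836 to 12.8 ± 0.538 CPM, which is 0.58 on the log2 scale with an adjusted p of 0.0329 in the same test.

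A second RNA polymerase III product with a call was Rn4.5s, the rodent 4.5S RNA, whose row on chromosome 6 stands for repeated copies. It measured 88.5, 72.5 and 66.4 CPM in control and 115.0, 111.0 and 105.0 CPM in IL-1β libraries. The groups did not overlap, and the log2 fold change was 0.54 (SE 0.0927, adjusted p = 0.00013, edgeR's quasi-likelihood test). Leaving out any single library kept this call. How reads that match several copies were handled is not given in the sources used here.

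Among the snoRNAs 7 rose and none of 31 fell, namely 4 of 14 box C/D and 3 of 16 box H/ACA members, with 1 Cajal body RNA (Scarna17) among the rest. A few of the sequences are shown because the finding rests on short RNAs that sit inside longer transcripts. They were read from the GENCODE transcripts of GRCm38 as DNA letters, 5′ to 3′. Capitals mark box C (TGATGA) and box D (CTGA) in Snord37 and Snord87, and the terminal ACA in Snora21 and Snora26. Their positions are chr10:81178950-81179013 on the plus strand for Snord37, chr1:9942463-9942549 on the minus strand for Snord87, chr11:97781639-97781775 on the minus strand for Snora21 and chr5:74093530-74093650 on the plus strand for Snora26.
Snord37: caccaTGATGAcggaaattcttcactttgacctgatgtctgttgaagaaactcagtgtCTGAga
Snord87: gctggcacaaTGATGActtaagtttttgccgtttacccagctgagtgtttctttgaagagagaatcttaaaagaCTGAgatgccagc
Snora21: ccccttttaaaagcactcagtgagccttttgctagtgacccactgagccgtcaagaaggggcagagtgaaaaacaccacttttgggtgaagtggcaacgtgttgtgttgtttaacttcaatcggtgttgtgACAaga
Snora26: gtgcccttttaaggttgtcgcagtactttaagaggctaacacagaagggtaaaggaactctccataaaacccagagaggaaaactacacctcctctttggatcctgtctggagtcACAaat

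Snord37, which lies in an intron of the elongation factor gene Eef2, measured 2.63, 2.86 and 1.11 CPM in control and 5.02, 5.48 and 6.97 CPM in IL-1β libraries. The treated libraries all exceeded the controls, among which replicate 3 was the lowest. The log2 fold change was 1.39 (SE 0.343, adjusted p = 0.00619, edgeR's quasi-likelihood test), and the call was lost without IL-1β replicate 3.

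Snora21, in the ribosomal protein gene Rpl23, measured 1.13, 1.88 and 1.31 CPM in control and 3.1, 3.07 and 4.28 CPM after IL-1β. The groups were apart, with a log2 fold change of 1.27 (SE 0.392). Snora68 went from 2.35, 3.4 and 3.63 CPM to 5.67, 7.49 and 5.39 CPM, again without overlap and with a log2 fold change of 0.98 (SE 0.294).

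Snord35a, in Rpl13a, measured 3.19, 3.22 and 1.51 CPM in control and 5.67, 5.76 and 4.65 CPM after IL-1β. Snord55 went from 4.23, 3.94 and 2.82 CPM to 5.67, 6.05 and 8.46 CPM. Both pairs of groups were apart, and in each the control replicate 3 was the lowest library. Their log2 fold changes were 1.01 (SE 0.329) and 0.87 (SE 0.281), and both calls were lost without control replicate 3 or without IL-1β replicate 2 or 3. Snord35a was also lost without IL-1β replicate 1, and Snord55 without control replicate 2.

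Snora26, the most abundant of the called snoRNAs, measured 15.2, 14.7 and 13.6 CPM in control and 20, 22.1 and 18.5 CPM after IL-1β. The groups were again apart, at a log2 fold change of 0.48 (SE 0.145). Snord87 measured 1.6, 1.7 and 1.41 CPM in control and 2.03, 3.94 and 5.02 CPM after IL-1β, so that treated replicate 1 lay only slightly above the controls. Its log2 fold change was 1.22 (SE 0.4). Across Snora21, Snora68, Snord35a, Snord55, Snora26 and Snord87 the adjusted p ranged from 0.0253 to 0.0422 in edgeR's quasi-likelihood test. Leaving out control replicate 1 or IL-1β replicate 2 ended the call of Snora68, and leaving out control replicate 2 or 3 or IL-1β replicate 1 or 2 that of Snora26. The call of Snora21 was kept only without control replicate 2, and that of Snord87 only without IL-1β replicate 1. The call of Snora26 was also lost under total-count scaling, and that of Snord87 in limma-trend and with a replicate block.

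**Figure D2:**
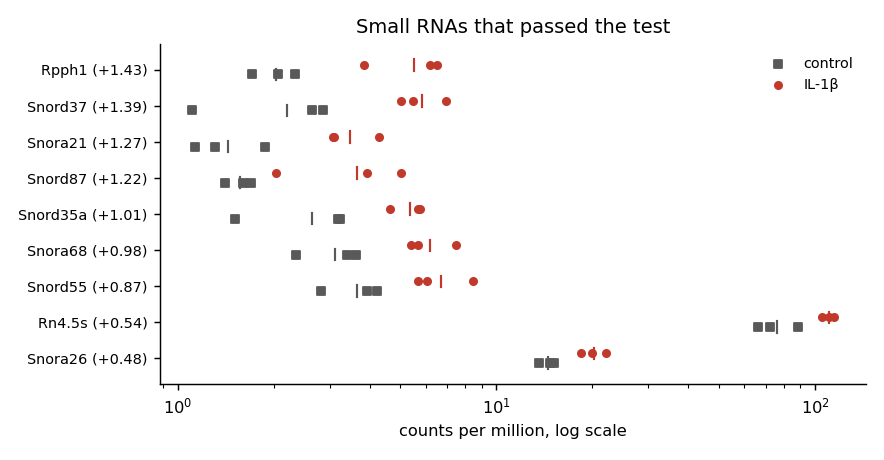
CPM in each of the 3 control (grey squares) and 3 IL-1β libraries (red circles) for the 9 small RNAs that passed the test, on a log axis. Short vertical lines are group means, and log2 fold changes stand in parentheses. In every row the treated libraries lie to the right of the controls.

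Over all 33 small RNAs, 28 had a log2 fold change above 0 and 5 below. The treated libraries lay entirely above the controls in 18 of the 33, which is 54.5%, and entirely below in 0. Over all 11657 tested genes the groups were apart in 28.2%, with 1630 entirely above and 1652 entirely below. The log2 fold change was above 0 in 5786 of all tested genes and below 0 in 5871. Without control replicate 3, which was the lowest control for 17 of 31 snoRNAs, 4 small RNAs were still called higher and the median was 0.46. Leaving out the other libraries in turn gave 3 to 9 calls and medians from 0.50 to 0.66, with 3 calls when IL-1β replicate 2 was omitted. The call count of the class therefore depended on single libraries, while the median stayed above 0 in each case.

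The snoRNAs were also described by abundance. A set of 5 snoRNAs averaged 10 CPM or more, and their log2 fold changes ran from 0.03 to 0.48 with a median of 0.18. The 26 scarcer ones had a median of 0.63, running from -0.49 to 1.49. For 5 of the 31 snoRNAs, all with the higher level after IL-1β, the summed counts would be under 100 if both groups were at the level of the lower one, so the rule itself bears on the scarcer median and on that of the class. Among the abundant ones, Snora30, in Srcap, measured 59.9, 55.1 and 37.4 CPM in control and 50.8, 50.1 and 54.8 CPM after IL-1β. Its groups overlapped, with a log2 fold change of 0.03 (SE 0.124). Among the scarce ones, Snord42a, in Rpl23a, had the largest estimate at 1.49 (SE 0.506), but it did not pass at an adjusted p of 0.052 in edgeR's quasi-likelihood test. The summed level of the 31 snoRNAs was 223 ± 43.8 CPM in control and 277 ± 14.8 CPM after IL-1β (SD, n = 3), with overlap between the groups.

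A further 79 snoRNA and scaRNA rows had counts under the limit of 100 and so were no members. Together they measured 30.6, 29.1 and 30.4 CPM in the control libraries and 44.0, 46.7 and 46.7 CPM in the IL-1β libraries. The groups were apart on this sum, which was not itself tested. The treated mean was the higher one in 58 of the 79 rows and the lower one in 21. Only 16 of these rows were tested, of which 1 rose (Snord2, log2 fold change 1.64) and 0 fell. Of all tested genes 6.97% were called higher and 6.44% lower.

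The transcripts that contain the small RNAs were then set beside them. This was done for 26 of the 33 small RNAs, which lay on the same strand within a tested host gene reported here. The 25 distinct hosts had a median log2 fold change of 0.05, whereas the median of the small RNAs inside them was 0.49. Of these hosts 1 was called higher and 0 lower, beside 6.97% and 6.44% of all tested genes. The small RNA had the larger log2 fold change in 22 of 26 pairs. The count rule bears on the small RNA values in these contrasts, those of Snora21 included, as described above. Eef2, which holds Snord37, was at 1460 ± 62.6 CPM in control and 1430 ± 33.3 CPM after IL-1β, which is -0.04 (SE 0.0577) on the log2 scale. Rpl23, which holds Snora21, was at 982 ± 77.9 and 970 ± 30.8 CPM, which is -0.02 (SE 0.0639) on the log2 scale. Reads from an unspliced host intron and from the snoRNA within it cannot be told apart in these counts. The difference between a small RNA and its host was not itself tested.

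**Figure D3:**
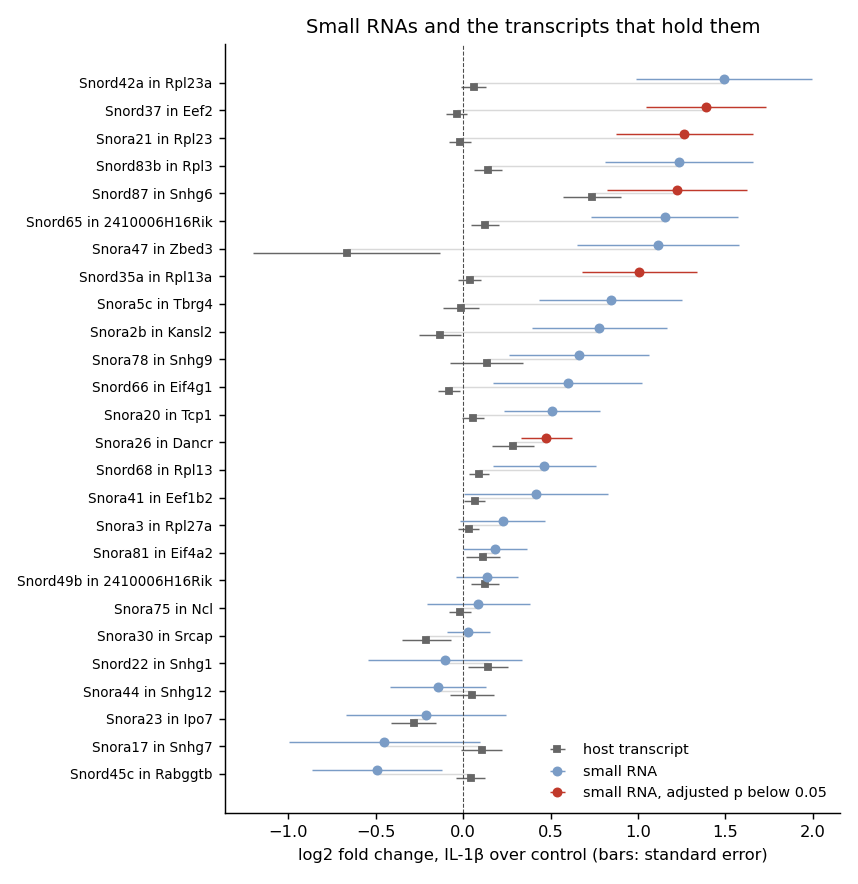
Log2 fold change of IL-1β over control for 26 small RNAs (circles) and the host transcript of each (squares), with standard errors as bars. Red circles passed the test. Host values cluster near 0, with a median of 0.05, and the small RNAs spread to the right, with a median of 0.49. The count rule bears on the small RNA values.

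The RNA-binding proteins of these particles were examined from a list. None of 16 tested box C/D and H/ACA core and assembly proteins passed, beside 13.4% of all tested genes, with a median log2 fold change of 0.09. Fibrillarin (Fbl), the methyltransferase of box C/D particles, measured 71.5 ± 7.87 CPM in control and 77.3 ± 2.65 CPM after IL-1β (SD, n = 3), and dyskerin (Dkc1), the pseudouridine synthase of H/ACA particles, 150.0 ± 9.46 and 168.0 ± 8.06 CPM. None of 18 tested genes of the nuclear RNA exosome and its targeting complexes passed either, and their median was 0.03. The non-polyadenylated pre-ribosomal RNA row Rn45s ranged from 113000 to 140000 CPM in control, lowest in replicate 3, and from 121000 to 130000 CPM after IL-1β, with a log2 fold change of -0.06 (SE 0.0642). The part of uneven capture of RNA without poly(A) tails in the small RNA values, those of Rpph1 and Rn4.5s included, was not tested.

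The host genes of small RNAs were counted from a list that is mostly long noncoding RNAs but also holds protein-coding genes such as Eif4a2. Of 22 tested genes in this list, 18 of them noncoding members, 1 rose and 1 fell, beside 13.4% of all tested genes called. Their median log2 fold change was 0.12. Snhg6, the host of Snord87, measured 98.0, 45.0 and 53.9 CPM in control and 112.0, 93.9 and 122.0 CPM after IL-1β. Control replicate 1 lay within the treated range, so the groups overlapped, and the log2 fold change of 0.74 (SE 0.167) had an adjusted p of 0.00291 in edgeR's quasi-likelihood test but 0.198 in DESeq2, against 6.54e-15 to 0.00434 under the other scalings, filters and tools. It was 0.0526 without IL-1β replicate 3. The log2 fold change was 1.15 without control replicate 1 and 0.53 without control replicate 2. Snhg18 went the other way, from 5.64, 7.7 and 3.83 CPM down to 1.28, 2.5 and 1.39 CPM. The groups were apart, and the log2 fold change of -1.72 (SE 0.365, adjusted p = 0.00153, edgeR's quasi-likelihood test) was kept without any single library. Its divergent neighbour at 151 bp, the semaphorin gene Sema5a, was near 0 in both groups, with 0.149 and 0.062 CPM.

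The other host genes did not pass. Gas5, a growth arrest transcript that carries many box C/D snoRNAs in its introns, was at 311 ± 18.1 CPM in control and 331 ± 11.1 CPM after IL-1β. Dancr, the host of Snora26, measured 22.9, 22.1 and 23.1 CPM in control and 27.8, 29.4 and 25.8 CPM after IL-1β. Its groups were apart, but the log2 fold change of 0.28 (SE 0.121) had an adjusted p of 0.139 in edgeR's quasi-likelihood test. The log2 fold changes of Taf1d and Epb4.1l4aos were both 0.15, and that of 1810032O08Rik, which RefSeq names Snhg16, was 0.45 (SE 0.277).

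The long noncoding RNA with the clearest gain was 6530402F18Rik. No read was assigned to it in the 3 control libraries, against 27, 72 and 56 counts in the IL-1β libraries, or 2.89, 6.92 and 5.21 CPM. All treated libraries were thus separate from the controls, and the gene met the count rule only through the treated group. Taking 3 counts per library as the lower limit of detection, the mean was at least 17.6-fold higher, and the adjusted p was 1.8e-07 in edgeR's quasi-likelihood test. The gene covers chr2:29245116-29252993 on the minus strand (GRCm38) within the interval of the netrin family gene Ntng2 on the same strand, and Ntng2 had 0 counts in all libraries. The function of this RNA is not given in the sources used here.

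The promoter of 6530402F18Rik is shown because the transcript was detected only in the treated libraries. The window spans chr2:29252944-29253243 on the minus strand (RefSeq, GRCm38.p6), from 250 bases before to 50 after the start. Its single match on either strand to the NF-κB consensus, the binding motif of a transcription factor family that IL-1 receptor signalling activates, is in capitals and begins at position -135.
6530402F18Rik promoter: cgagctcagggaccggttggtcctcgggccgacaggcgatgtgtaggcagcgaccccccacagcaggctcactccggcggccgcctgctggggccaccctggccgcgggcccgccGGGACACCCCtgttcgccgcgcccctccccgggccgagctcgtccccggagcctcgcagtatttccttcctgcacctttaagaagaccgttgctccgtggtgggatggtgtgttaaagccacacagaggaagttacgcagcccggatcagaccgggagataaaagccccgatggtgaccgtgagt
Of 32851 promoter windows of the same length, 1480 (4.51%) hold such a match, and a match is a description of the letters and not of binding. Only 206 of 384 noncoding members with a RefSeq gene ID (53.6%) had a window, so a share over the members would be void and is not given.

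The other upregulated long noncoding RNAs changed less. 4933440J02Rik measured 1.6, 1.43 and 1.11 CPM in control and 3.53, 3.84 and 3.16 CPM after IL-1β, without overlap and with a log2 fold change of 1.34 (SE 0.385, adjusted p = 0.0197, edgeR's quasi-likelihood test). Leaving out control replicate 2 or 3 or IL-1β replicate 1 or 2 ended this call. Of those not described further below, the log2 fold changes were 0.63 for 2310034O05Rik, 0.49 for 9530082P21Rik, 0.47 for 4930581F22Rik and 0.31 for Gm19705, each with treated libraries above all controls. Of these 4, 4930581F22Rik alone kept its call whichever library was left out. The calls of 2310034O05Rik and 9530082P21Rik were lost without control replicate 2 or 3 or IL-1β replicate 1 or 3, and that of Gm19705 without control replicate 2 or any of the IL-1β libraries. Total-count scaling also ended the calls of 2310034O05Rik and Gm19705, and upper-quartile scaling that of Gm19705.

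Among the downregulated long noncoding RNAs, 4931408D14Rik had the smallest p-value. It fell from 116.0, 122.0 and 115.0 CPM in control to 58.2, 61.5 and 53 CPM after IL-1β. The groups were far apart, with a fold change of 0.489 and a log2 fold change of -1.03 (SE 0.0833, adjusted p = 7.7e-10, edgeR's quasi-likelihood test). Its nearest coding gene at 4646 bp, the insulin-degrading enzyme gene Ide, was at 51.5 ± 7.58 CPM in control and 54.7 ± 5.59 CPM after IL-1β (SD, n = 3), which is 0.09 on the log2 scale.

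Among the calls, some scarcer transcripts had larger decreases, but the count rule bears on these. For Gm12603, 1110028F11Rik and Gm16617 the sum would be under 100 with both groups at the lower, treated level. A trend of decrease with abundance was not tested. Gm12603, listed in RefSeq as Wincr1, measured 4.42, 5.46 and 2.82 CPM in control and 1.6, 1.63 and 1.02 CPM after IL-1β, with no overlap and a log2 fold change of -1.58 (SE 0.389). 1110028F11Rik lies within Rnf43, a ubiquitin ligase gene that restrains Wnt receptors, on the same strand. It went from 3.29, 3.13 and 2.52 CPM to 0.748, 0.865 and 1.67 CPM, which is -1.42 (SE 0.435) on the log2 scale, and Rnf43 itself had -0.99 (SE 0.451) and did not pass. Gm16617, antisense to the exchange factor gene Arhgef40, went from 2.54, 2.86 and 2.62 CPM to 0.962, 0.961 and 1.12 CPM, which is -1.39 (SE 0.432) on the log2 scale, while Arhgef40 had -0.04 (SE 0.129). The adjusted p of Gm12603, 1110028F11Rik and Gm16617 was 0.00615, 0.0289 and 0.0317 in edgeR's quasi-likelihood test, and the Gm16617 call was lost when any library was left out. The call of Gm12603 was lost without control replicate 2 or IL-1β replicate 3, and that of 1110028F11Rik without control replicate 1 or 2 or IL-1β replicate 1 or 2.

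The rest of the decreases were smaller. The readthrough transcript Clcf1-pold4 went from 18.1, 17.2 and 18.4 CPM to 10.9, 9.32 and 12.4 CPM, which is -0.72 (SE 0.161) on the log2 scale, while Clcf1, the cytokine gene with which it shares its interval, had -0.12 (SE 0.154). 2010204K13Rik on the X chromosome fell from 52.1 ± 2.17 to 37.3 ± 6.04 CPM (SD, n = 3), which is -0.48 on the log2 scale. Both calls were kept without any single library. 4933407K13Rik and 2900009J06Rik had log2 fold changes of -0.85 (SE 0.285) and -0.84 (SE 0.27), and adjusted p of 0.0472 and 0.0396 in edgeR's quasi-likelihood test. The call of 4933407K13Rik was lost in DESeq2 and was kept only without control replicate 3 among the single omissions, and that of 2900009J06Rik was lost without replicate 1 or 2 of either group. 2900009J06Rik overlaps Acmsd, a gene of tryptophan catabolism, on the opposite strand, and Acmsd had -0.998 (SE 0.37) without passing.

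**Figure D4:**
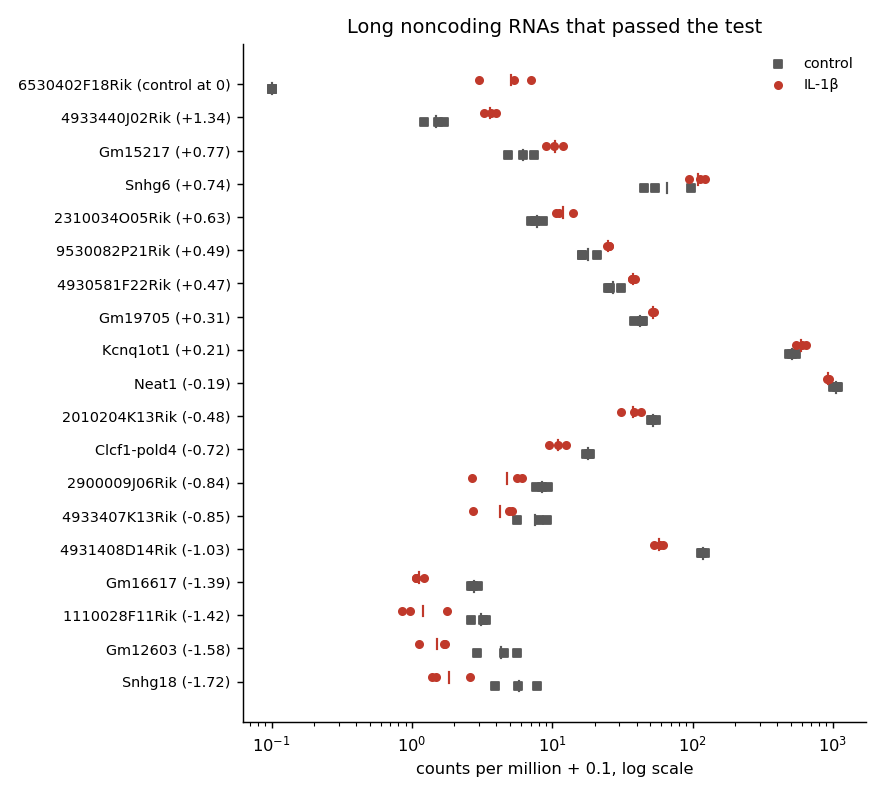
CPM plus 0.1 in each of the 3 control (grey squares) and 3 IL-1β libraries (red circles) for the 19 long noncoding RNAs that passed the test, on a log axis, ordered by log2 fold change (in parentheses). Short vertical lines are group means. 6530402F18Rik sits at the left edge in control, Snhg6 is the only one of the 19 with overlapping groups, and Neat1 and Kcnq1ot1 show small shifts at high counts.

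The list of nuclear and architectural long noncoding RNAs contained 10 tested members, of which 1 rose and 1 fell, beside 13.4% of all tested genes called. Their median log2 fold change was -0.05. Malat1, a component of nuclear speckles, was the noncoding member with the most reads and held 0.742 to 0.943% of all counts. It measured 9180, 9200 and 9090 CPM in control and 9130, 9270 and 7620 CPM after IL-1β. Only IL-1β replicate 3 was low, and the log2 fold change of -0.08 (SE 0.0632) did not pass. CPM values are per gene and are not scaled by transcript length.

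Neat1, the scaffold of paraspeckles, measured 1090, 1070 and 1000 CPM in control and 917, 933 and 909 CPM after IL-1β. The groups did not overlap, but the change was small, at -0.19 on the log2 scale (SE 0.0588, adjusted p = 0.0271, edgeR's quasi-likelihood test), and was no longer called without control replicate 2 or any of the IL-1β libraries. Frmd8, the nearest coding gene at 5494 bp, fell from 57.8 ± 2.78 to 43.9 ± 2.71 CPM (SD, n = 3), which is -0.40 on the log2 scale. None of 16 tested paraspeckle protein genes passed, and their median was 0.02. Nono, one of the core paraspeckle proteins, had -0.26 (SE 0.0875).

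Of the imprinted antisense RNAs, Kcnq1ot1 passed the test and Airn did not. Kcnq1ot1, which silences neighbouring genes on the paternal chromosome, measured 488, 510 and 545 CPM in control and 598, 638 and 550 CPM after IL-1β. The lowest treated library lay just above the highest control. The log2 fold change was 0.21 (SE 0.0669, adjusted p = 0.0357, edgeR's quasi-likelihood test), and the call was lost when libraries were scaled to total counts or upper quartiles, or without replicate 1 or 2 of either group. Airn, which silences Igf2r, went from 7.05, 3.22 and 3.53 CPM to 1.28, 1.73 and 3.07 CPM. These groups were apart, at -1.17 (SE 0.395), and the adjusted p was 0.0517 in that test, with 0.0126 to 0.0604 under the other scalings, filters and tools. Without control replicate 1, the highest of the controls, the log2 fold change was -0.72 with an adjusted p of 0.344 in edgeR's quasi-likelihood test, and leaving out each of the other libraries gave 0.0333 to 0.221. Tug1 and Pvt1 overlapped between the groups, with log2 fold changes of 0.22 and -0.34.

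The remaining lists of long noncoding RNAs were too short to set their calls against the 13.4% of all tested genes. Of 6 tested p53 and stress transcripts, 1 fell, which was Neat1 again, and Gm14005 (Morrbid), a regulator of myeloid cell survival, had -0.78 (SE 0.326) without passing. Lincpint, a p53 target, had 0.16 (SE 0.23). Of 2 tested transcripts in the liver list, the member 1810008I18Rik was at 60.0 ± 3.2 and 60.2 ± 4.59 CPM (SD, n = 3), while 0610005C13Rik, with 86 summed counts and thus no member, fell by 2.17 on the log2 scale. The single tested microRNA host, Gm10872 (Mirt2), had 0.46 (SE 0.318).

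Transcripts of other factors that act on noncoding RNA were counted by list in the same way. For these and the factor lists above, the background is the 13.4% of all tested genes that passed. The lists are short, and no list was tested against that share. Among 16 tested nonsense-mediated decay factors 1 fell, Upf1, the helicase of the pathway, from 167 ± 9.34 to 141 ± 6.32 CPM (SD, n = 3), which is -0.25 on the log2 scale with an adjusted p of 0.0228 in edgeR's quasi-likelihood test. None of 15 tested genes of microRNA processing and none of 13 of the signal recognition particle and 7SK particle passed, with medians of 0.08 and 0.01.

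Pseudogene rows require caution, because reads of a pseudogene can match its parent gene. Gm1821 on chromosome 11 (Ubb-ps, a ubiquitin B pseudogene) measured 814, 796 and 787 CPM in control and 987, 971 and 1040 CPM after IL-1β. The groups were apart, and the log2 fold change was 0.32 (SE 0.0588, adjusted p = 0.00028, edgeR's quasi-likelihood test). Its row overlaps Ubb on the same strand, which was listed at only 0.5 CPM in control and 0.129 CPM after IL-1β, so the source of these reads is uncertain. Similarly, Atp6v0c-ps2 and the overlapping proton pump gene Atp6v0c had almost the same levels, 228 and 227 CPM in control, and the same log2 fold change of 0.25. Gm7334 overlaps the antiproliferative gene Btg3, and both rose, by 0.38 and 0.41 on the log2 scale. The call of Atp6v0c-ps2 was lost without control replicate 2 or IL-1β replicate 2 or 3, and that of Gm7334 without replicate 1 of either group or IL-1β replicate 2. Total-count scaling ended both calls, and upper-quartile scaling that of Atp6v0c-ps2.

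H2-K2, Ces2d-ps and Olfr1372-ps1 do not overlap a coding gene. H2-K2, of the major histocompatibility class I family, measured 19, 18.5 and 17.1 CPM in control and 27.3, 26.4 and 31.3 CPM after IL-1β. Ces2d-ps, of the carboxylesterase 2 cluster, went from 33.7, 29.8 and 32.7 CPM to 45.0, 51.0 and 49.8 CPM. Both were apart between groups, with log2 fold changes of 0.64 (SE 0.128) and 0.60 (SE 0.104) and adjusted p of 0.00087 and 0.00016 in edgeR's quasi-likelihood test. Olfr1372-ps1, an olfactory receptor pseudogene, fell from 4.51, 4.39 and 4.23 CPM to 1.71, 1.15 and 1.02 CPM, the largest decrease of all members at -1.76 (SE 0.375, adjusted p = 0.0016 in that test). The most abundant ribosomal protein pseudogene, Rplp2-ps1, was at 1270 ± 94.8 and 1390 ± 64.6 CPM and did not pass, nor did Gm6654 at 683 ± 86.9 and 696 ± 42.6 CPM (SD, n = 3). Gm18853 and Gm17757 had identical counts in all libraries and nearly the same interval, so they amount to 1 measurement.

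Noncoding genes often share a locus with a coding gene, and 202 of the 395 (51.1%) overlap one. Of the 34 called noncoding members, 25 had a tested overlapping or nearest coding gene, and in 7 this gene was called as well, in the same direction each time. Across all tested pairs, 15.4% of the coding neighbours were called, against the background of 13.4%. Besides Neat1 with Frmd8, Atp6v0c-ps2 and Gm7334, the 7 include Ces2d-ps, whose neighbour Ces2c rose by 0.47 on the log2 scale. They also include 4933440J02Rik, at 78070 bp from the apoptosis-related gene Phlda1 (log2 fold change 0.57), and Gm19705, at 53005 bp from the zinc finger gene Zfp281 (0.31).

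The remaining pair was Gm15217, which overlaps Bmp4, a growth factor of the TGF-β family, on the opposite strand. Gm15217 measured 6.11, 4.74 and 7.25 CPM in control and 10.2, 11.8 and 8.92 CPM after IL-1β, without overlap. Its log2 fold change was 0.77 (SE 0.223, adjusted p = 0.0199, edgeR's quasi-likelihood test), and the call was lost without control replicate 2 or IL-1β replicate 1 or 2. Bmp4 rose from 106 ± 19.2 to 193 ± 23.4 CPM (SD, n = 3), which is 0.87 (SE 0.102) on the log2 scale.

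The pairs on opposite strands were then compared as a whole. Where the coding gene was called higher, the noncoding member had a log2 fold change above 0 in 7 of 8 pairs, with a median of 0.35. Where the coding gene was called lower, the member was below 0 in 9 of 11 pairs, with a median of -0.39. Of these 19 members 1 passed the test, Gm15217. Over 133 pairs the log2 fold changes had a Pearson correlation of 0.47, given as a description, since both genes of a pair come from the same libraries. For example, 9130019P16Rik had -0.86 where Chn2, overlapping it, had -1.32, and Plet1os had 0.38 where Plet1 had 0.88. Where the opposite-strand gene was not called, the member lay above 0 in 62 pairs and below 0 in 51. The correlation was 0.25 over 72 same-strand overlaps and 0.2 over 151 nearest pairs without overlap. Beside a coding gene called higher, members lay above 0 in 5 of 6 same-strand and 16 of 21 nearest pairs. Beside one called lower, they lay below 0 in 0 of 1 and 5 of 8. Whether the counting used strand is not given in the sources used here, so reads of a gene and of its antisense partner may not be told apart.

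**Figure D5:**
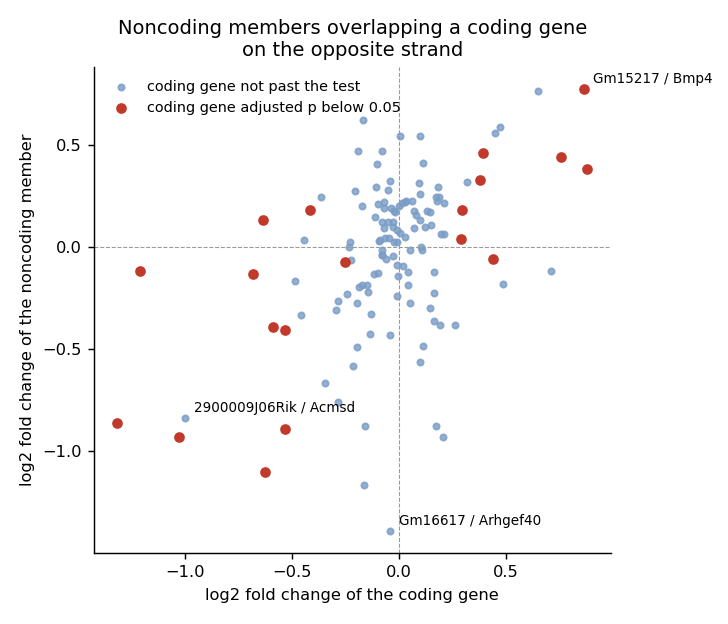
Log2 fold change of the noncoding member (vertical axis) against that of the coding gene it overlaps on the opposite strand (horizontal axis), for 133 pairs. Red points are pairs in which the coding gene passed the test, of which 7 of the 8 higher ones lie above 0 and 9 of the 11 lower ones below 0 on the vertical axis. Labels name 3 of the 4 called members in these pairs, each with its partner.

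Finally, the 162 members of protein-coding genes gave 8 higher and 6 lower (8.64%, against 13.4% of all tested genes), with a median log2 fold change of 0.005. Their reads are counted per gene, so coding and noncoding variants cannot be told apart. Fth1, the ferritin heavy chain that stores iron, rose from 3490 ± 203 to 5970 ± 205 CPM (SD, n = 3), which is 0.78 on the log2 scale. Mb21d1 (Cgas), a cytosolic DNA sensor, rose by 1.43, and Prdx6, an antioxidant enzyme, by 0.32. Adhfe1, a mitochondrial alcohol dehydrogenase, and Mvd, of the mevalonate pathway, rose by 0.89 and 0.59. The call of Mvd was lost without control replicate 2 or 3 or IL-1β replicate 2 or 3, under total-count or upper-quartile scaling, and in DESeq2. The gene next to Mvd at 656 bp, the NADPH oxidase subunit gene Cyba, rose by 2.57.

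Of the downregulated ones, Ahsg, which encodes the plasma protein fetuin-A, fell from 996 ± 62.4 to 379 ± 11.3 CPM (SD, n = 3), which is -1.39 on the log2 scale. Gfra1, a receptor for the neurotrophic factor GDNF, had -1.22 and Tnfrsf23, a decoy receptor, -0.67. Without IL-1β replicate 3, Tnfrsf23 was no longer called. Tmem176b and its divergent neighbour Tmem176a changed by -0.20 and -0.26, and the call of Tmem176b was lost without control replicate 2 or 3 or IL-1β replicate 1 or 2. The chromatin regulator Ankrd11, at 625 ± 45.0 and 596 ± 18.4 CPM, and the exosome members Exosc5, Exosc10 and Rbm7 did not pass, nor did the splicing regulator Tardbp.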

How the data were processed

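Primary mouse hepatocytes were sequenced by QuantSeq (3 control and 3 IL-1β samples, grouped by their labels). The authors aligned reads with Bowtie2 to mm10 (GRCm38) and deposited raw counts per gene. Their log2 values, fold changes and p-values in the same table were not used. The counting tool, its strand setting and multi-mapping are not given in the sources used here. Counts were tested in R 4.3.3 with edgeR 4.0.16 (filterByExpr, TMM, quasi-likelihood test) and Benjamini-Hochberg adjustment over 11657 genes, a procedure first tested on simulated data (72% of changes of log2 size 1 recovered, 3.45% of calls false). CPM values use TMM factors, and each SE was obtained from the F statistic of its gene. Classes were taken from RefSeq by Entrez identifier (538 members) or transcript (12), and 7 members were unmatched. Members, lists and naming rule were chosen with earlier results of these data known. The text names the 12 largest increases and 12 largest decreases among called members, the 10 with the highest CPM, up to 6 of each list, 2 genes on either side of the count limit, and called members whose coding neighbour was called. Other names (Rn4.5s, H2-K2, Fbl, Snora30, Snord42a, Snord2, 9130019P16Rik, Plet1os and the smaller called long RNAs among them) were chosen after their values were seen. A floor of 3 counts per library stood for no detection. Alternatives included limma 3.58.1, DESeq2 1.42.0, other scalings and filters, and leaving out each sample. Replicate numbers did not pair the samples. Some host genes are not reported here.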

Additional observations from a re-analysis of the deposited data

How the results depend on the processing

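Over all 557 members, 48 were called in the main test and 45 to 61 under the other scalings, filters and tools, and 1563 of all genes against 1488 to 1728. With the replicate number as a replicate block the member count was 56, and the same-numbered samples deviated together by correlations of only 0.075, 0.027 and -0.005. Leaving out 1 library at a time gave 29 (without IL-1β replicate 2) to 53 called members and 1131 to 1596 genes. Counts moved by construction when the adjusted p had to be below 0.01 (24), when calls also needed 1.5-fold (31), among members that overlap no coding gene (31 of 326) and without pseudogenes and coding genes (28 of 292). Among the named members, values close to 0 changed sign. Gm6654 was -0.028 under total-count and -0.002 under upper-quartile scaling, and 1810008I18Rik -0.051 and -0.026. Without single libraries Malat1 ranged from -0.125 to 0.011, Gm6654 from -0.076 to 0.091, Lincpint from -0.08 to 0.429 and 1810008I18Rik from -0.034 to 0.069. None of these passed in any setting, and the cause was not tested. Of the 34 noncoding calls, 12 were kept when any one library was left out. The replicate block ended 1 named call, Snord87 (adjusted p = 0.0604 in edgeR, against 0.0159 to 0.0512 under the other scalings, filters and tools). Airn passed in 6 of the scalings, filters and tools (adjusted p = 0.0126 to 0.045).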
